A study of Homo sapiens with 6 samples.

Results

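The nuclear genes for the subunits of oxidative phosphorylation were read across 6 RNA-sequencing libraries of 2 cell lines of pancreatic ductal adenocarcinoma (PDAC). Members were the protein-coding rows (type mRNA) whose symbol starts with NDUFA, NDUFB, NDUFC, NDUFS or NDUFV and a digit, UQCR, COX4 to COX8 or ATP5, together with SDHA, SDHB, SDHC, SDHD and CYC1. The rule took 89 of 20452 rows of type mRNA: 39 of complex I, 4 of complex II, 10 of complex III, 17 of complex IV and 19 of complex V. Of the 89, 83 averaged at least 1 FPKM across the libraries and were tested. FPKM counts fragments per kilobase of a gene and per M (mega) sequenced fragments.

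The lines were PANC-1, an established human PDAC line, and a PDAC line that the labels name 90. Each line had 2 libraries labelled siALDOA, numbered 1 and 2, and 1 library labelled NC. The si in this label was taken to mean a small interfering RNA (siRNA) that targets ALDOA, the gene of the glycolytic enzyme aldolase A. The meaning of 90 and NC, and whether the numbers 1 and 2 mark different siRNAs or repeats, were not given in the sources used here. Nothing in the labels ties the libraries of a group to separate cultures, and p-values therefore reflect only a library-to-library spread that may be technical. RNA was selected by its poly(A) tail. Values in 3 libraries of a line are given below in the order siALDOA 1, siALDOA 2, NC.

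Oxidative phosphorylation takes electrons from NADH (complex I) and succinate (complex II), passes them through complex III and cytochrome c to oxygen (complex IV), and uses the proton gradient built on the way to drive ATP synthase (complex V). Most subunits are encoded in the nucleus and imported into mitochondria, while a small hydrophobic core is encoded by mitochondrial DNA, so that both genomes contribute to every complex but complex II. Several subunits have tissue isoforms, and the nuclear genes are known targets of the transcription factors NRF1 and NRF2/GABP, of which GABP is an ETS factor.

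ALDOA itself stood at 501 and 462 FPKM in the siALDOA libraries of PANC-1, against 906 in NC, and at 262 and 318 FPKM in those of the 90 line, against 726 in NC. It was lower in 4 of 4 siALDOA libraries, at -1.12 on the log2 scale over both lines (SE 0.160). After adjustment over all tested genes its limma adjusted p was 0.999991, in a fit with 3 residual degrees of freedom. Depth recovered from the values was 17.7 to 21.8 M fragments, at which 3 fragments on a gene of 1 kb are 0.14 to 0.17 FPKM. All 5 markers of epithelial cells reached 1 FPKM in at least 1 library (summed level 3388 to 4349 FPKM in PANC-1 and 3947 to 5293 in 90). Of the leukocyte markers 1 of 4 did (CD68; sum 124 to 163 and 31.4 to 51.6 FPKM, with PTPRC and CD3E at most 0.0347), of the fibroblast markers 1 of 5 (COL1A1; sum 10.5 to 14.4 and 1.28 to 1.76), and of the endothelial markers 1 of 3 (CDH5; sum 0.00781 to 0.0357 and 3.65 to 3.83). None of the 4 acinar and 3 endocrine markers did, with AMY2A and INS listed at 0 in every library. The part of these cell types in the results was not tested. The epithelial markers differed between the lines in both directions. CDH1 stood at 1.18 to 2.05 FPKM in PANC-1 and 38.0 to 44.5 in 90, and EPCAM at 7.51 to 17.5 and 88.6 to 154. KRT19 was also lower in PANC-1, at 652 to 845 FPKM against 1720 to 2427. KRT8 was higher, at 1523 to 1969 FPKM against 1074 to 1506, and the lines overlapped for KRT18. Libraries stood apart by base composition: among the 2973 tested genes with the lowest 25% of transcript GC content (up to 42.7%), the median log2 change from NC of the same line was -0.78 in siALDOA 1 and 0.51 in siALDOA 2 of PANC-1, and 1.12 in siALDOA 1 and -0.01 in siALDOA 2 of the 90 line.

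The members were among the well-expressed genes of these cells. Over the 83 tested members the median level was 106, 91.6 and 119.9 FPKM in PANC-1 and 76.4, 99.9 and 92.2 FPKM in the 90 line, against 6.73 to 9.25 FPKM over all 12592 tested genes. In all 3 PANC-1 libraries ATP5B, the catalytic beta subunit of ATP synthase, was the highest member, at 925, 750.0 and 919.5 FPKM. In the 90 line COX8A, a small subunit of cytochrome c oxidase, was the highest member in siALDOA 2 and NC, at 532, 759 and 733 FPKM over the 3 libraries, and ATP5E, the epsilon subunit of the ATP synthase head, led in siALDOA 1, at 546, 648 and 602 FPKM. These levels are per length of gene, and the gene lengths behind them were not given in the sources used here. Below the filter were 6 members, mostly isoforms known from other tissues or conditions: NDUFA4L2, known as a target of hypoxia-inducible factor, lay between 0.0899 and 0.805 FPKM, COX6A2, COX4I2, COX8C and COX7B2 did not pass 0.416 FPKM in any library, and ATP5L2 was listed at 0 in all 6.

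The rule works by name, and some rows need care. The read-through genes NDUFC2-KCTD14 and ATP5J2-PTCD1 share exons with NDUFC2 and ATP5J2, UQCRHL is a near-identical copy of UQCRH, and 129 rows that are not of type mRNA match the same name patterns. How the authors assigned reads that fit several genes was not given in the sources used here, so values of such genes are uncertain. NDUFA4, counted with complex I by its name, is now placed in complex IV, and ATP5S and ATP5SL (now DMAC2) are named after ATP synthase but are not among its structural subunits.

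The first comparison asked how the lines differ, with the effect of siALDOA in the model. The subunits did not differ as a block: 23 of 83 (27.7%) were higher in PANC-1 than in 90 and 5 of 83 (6.02%) lower, by limma on log2(FPKM + 1) with Benjamini-Hochberg adjustment over all 12592 genes and a threshold of 0.05. Of all tested genes 20.4% were called higher and 18.4% lower, 38.8% in all, so the share of members called in either direction, 28 of 83, was below the background. Higher and lower members numbered 9 and 1 of 38 in complex I, 1 and 0 of 4 in complex II, 3 and 1 of 10 in complex III, 4 and 2 of 13 in complex IV, and 6 and 1 of 18 in complex V. The lower members of complex IV include COX7A1, which passed the filter only through the 90 line. The median log2 difference was 0.24 over the members (interquartile range -0.02 to 0.68) and 0.13 over all tested genes (-0.47 to 0.67). By complex the median was 0.14 (I), 0.04 (II), 0.27 (III), 0.15 (IV) and 0.26 (V). In this bulk RNA, more RNA per cell and more of the cells that express a gene cannot be told apart.

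The 3 PANC-1 libraries lay above all 3 libraries of the 90 line for 34 members (29.0% of all tested genes did so) and below them for 10 (25.1% of all). All 28 called members were among these 44. The called members kept their direction under every alternative tried, but their number did not hold. With values scaled by the median ratio, which moved the median of all genes to 0.02, 10 members were higher and 2 lower. In that setting 29.4% of all tested genes were called, against 38.8% with values as deposited. Among the called genes, 43.4% were higher in PANC-1, against 52.6% with values as deposited. Without the NC library of PANC-1, 11 members and 19.2% of all tested genes were called. Without that of the 90 line, 11 members and 18.6% of all tested genes were called. Both of these fits take the line difference from the same siALDOA libraries alone, so they are not separate checks. The same 17 calls were lost without either NC library, and 16 of them, all but that of COX6B1, also with median-ratio scaling. Correction for GC content ended 10 calls, those of NDUFA4, NDUFB4, NDUFB9, UQCR10, COX7A2, COX7A2L, COX7B, ATP5A1, ATP5C1 and ATP5L. The 9 members called under every alternative tried were NDUFA1, NDUFB8, NDUFS5, SDHB, UQCRFS1, UQCRH, COX6B2, COX7A1 and ATP5G1. Of these, COX7A1 passed the filter only through the 90 line and could be called only as lower in PANC-1.

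**Figure D1:**
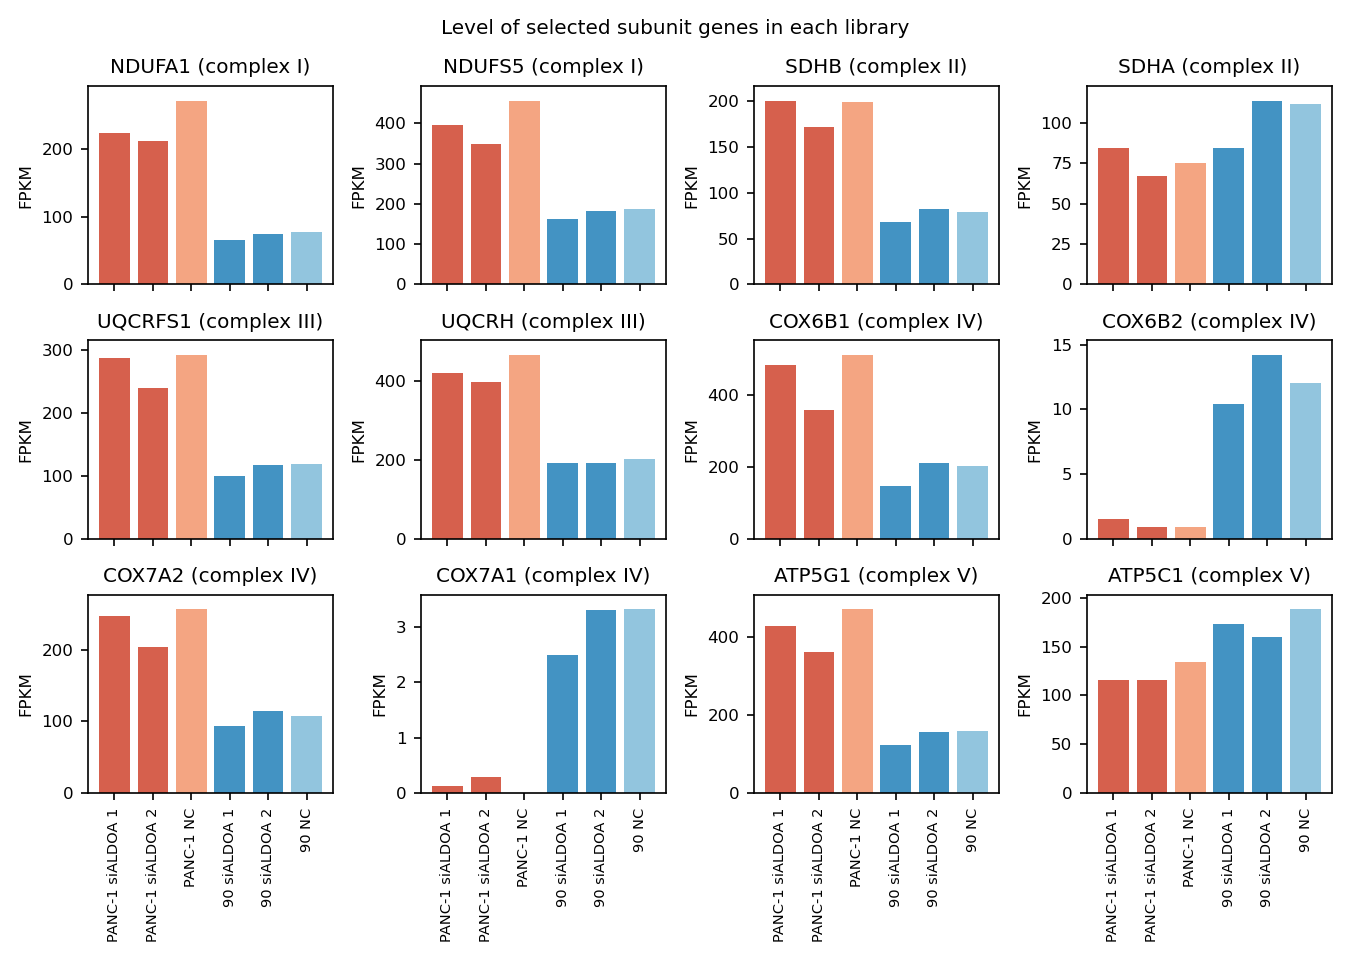
FPKM (linear axis, one scale per gene) of 12 members in each of the 6 libraries, 3 of PANC-1 in red tones and 3 of the 90 line in blue tones, with the NC library of each line paler. The PANC-1 bars stand above all bars of the 90 line for NDUFA1, NDUFS5, SDHB, UQCRFS1, UQCRH, COX6B1, COX7A2 and ATP5G1, and below them for SDHA, COX6B2, COX7A1 and ATP5C1.

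**Figure D2:**
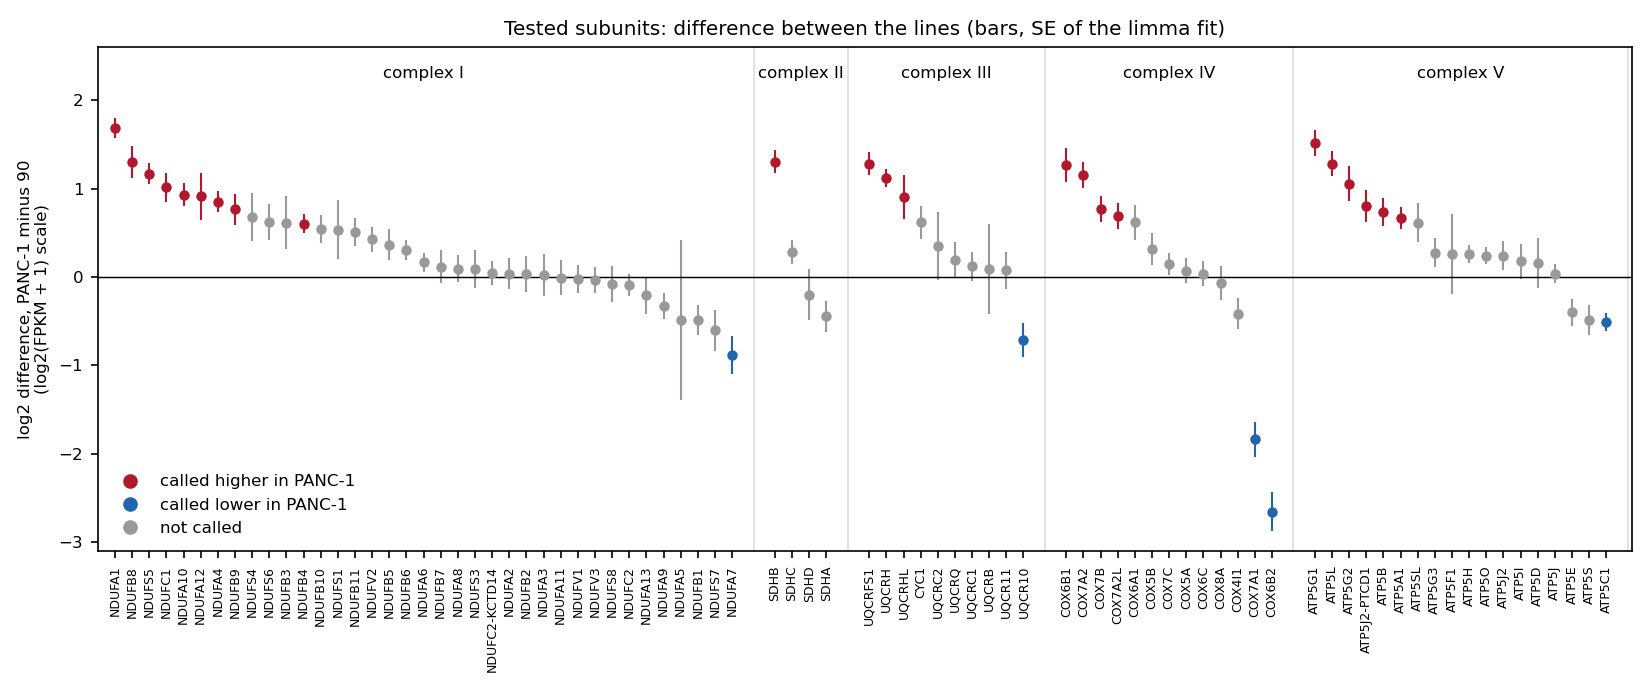
Log2 difference of PANC-1 minus 90 (log2(FPKM + 1) scale) for the tested members by complex, of which an uncalled one of complex I is not drawn, with bars for the standard error of the limma fit. Members called higher in PANC-1 are red, those called lower blue and the others grey, from NDUFA1 at 1.69 to COX6B2 at -2.65.

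Promoters are shown for 6 members, to set side by side the highest log2 difference of each complex (NDUFA1, SDHB, UQCRFS1, COX6B1 and ATP5G1) and the isoform COX6B2, lowest of all tested members on the log2(FPKM + 1) scale. With a pseudocount of 0.1 the lowest was COX7A1, at -3.94, against -3.38 for COX6B2. The sequences are from RefSeq (GRCh38.p14), 250 bases before to 50 after the transcription start, 5′ to 3′ on the strand of the gene. Capitals mark GCATGCG (the core of the NRF1 motif) or CCGGAAG (the core of the ETS motif that GABP binds), searched on both strands, so that an ETS core on the other strand reads CTTCCGG. The windows are chrX:119871582-119871881 (+) for NDUFA1, chr1:17053983-17054282 (-) for SDHB, chr19:29213102-29213401 (-) for UQCRFS1, chr19:35648073-35648372 (+) for COX6B1, chr17:48892537-48892836 (+) for ATP5G1 and chr19:55354670-55354969 (-) for COX6B2.
NDUFA1: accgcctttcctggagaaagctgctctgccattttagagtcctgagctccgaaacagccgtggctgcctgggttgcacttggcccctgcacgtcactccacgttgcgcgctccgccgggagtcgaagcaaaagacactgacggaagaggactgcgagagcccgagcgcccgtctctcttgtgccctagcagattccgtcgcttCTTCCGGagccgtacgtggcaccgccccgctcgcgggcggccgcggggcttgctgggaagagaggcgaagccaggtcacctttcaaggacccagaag
SDHB: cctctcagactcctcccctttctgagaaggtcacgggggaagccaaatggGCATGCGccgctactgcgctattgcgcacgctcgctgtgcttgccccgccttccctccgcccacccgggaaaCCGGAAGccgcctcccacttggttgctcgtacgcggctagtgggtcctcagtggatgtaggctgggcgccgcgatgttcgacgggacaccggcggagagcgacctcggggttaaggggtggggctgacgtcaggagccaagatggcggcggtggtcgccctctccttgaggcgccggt
UQCRFS1: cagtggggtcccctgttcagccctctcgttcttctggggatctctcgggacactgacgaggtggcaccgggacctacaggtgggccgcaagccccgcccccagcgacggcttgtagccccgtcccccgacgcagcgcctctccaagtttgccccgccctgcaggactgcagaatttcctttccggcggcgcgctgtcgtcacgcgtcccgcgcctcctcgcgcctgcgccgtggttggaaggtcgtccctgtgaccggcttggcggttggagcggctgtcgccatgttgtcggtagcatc
COX6B1: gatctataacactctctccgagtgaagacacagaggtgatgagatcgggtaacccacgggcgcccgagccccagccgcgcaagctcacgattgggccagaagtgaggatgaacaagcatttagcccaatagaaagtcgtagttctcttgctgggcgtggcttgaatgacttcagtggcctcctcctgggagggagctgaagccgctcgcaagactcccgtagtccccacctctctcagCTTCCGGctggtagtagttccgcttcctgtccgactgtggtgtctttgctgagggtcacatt
ATP5G1: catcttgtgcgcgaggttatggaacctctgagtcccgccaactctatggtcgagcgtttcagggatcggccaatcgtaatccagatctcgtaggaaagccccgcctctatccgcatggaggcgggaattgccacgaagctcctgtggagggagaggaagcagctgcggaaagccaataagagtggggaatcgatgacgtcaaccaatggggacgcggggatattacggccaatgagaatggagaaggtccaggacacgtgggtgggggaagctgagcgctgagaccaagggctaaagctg
COX6B2: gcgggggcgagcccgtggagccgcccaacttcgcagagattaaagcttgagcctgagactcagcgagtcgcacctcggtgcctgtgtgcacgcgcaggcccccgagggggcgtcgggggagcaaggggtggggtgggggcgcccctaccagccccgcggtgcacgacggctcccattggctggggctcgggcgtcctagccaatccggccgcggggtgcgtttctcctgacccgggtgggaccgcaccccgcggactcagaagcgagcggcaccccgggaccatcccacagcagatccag

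In these windows SDHB holds an NRF1 core and an ETS core, NDUFA1 and COX6B1 hold an ETS core on the other strand, and UQCRFS1, ATP5G1 and COX6B2 hold neither of these letters. RefSeq windows were matched for 68 member genes, with 81 windows because some genes have several starts. The NRF1 core was in 15 of the 81 windows (18.5%), against 5.8% of 12349 windows of tested mRNA genes. The ETS core was in 21 (25.9%), against 17.6%. The members called higher in PANC-1 had 26 windows, from 17 genes, of which 4 windows (15.4%) held the NRF1 core and 6 (23.1%) the ETS core. Of 52 windows of tested members not called higher, 11 (21.2%) and 15 (28.8%) did. Several windows of the same gene were counted separately. These matches describe the letters of the windows only.

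In complex I most of the 7 nuclear core subunits carry the flavin and iron-sulfur clusters or bind quinone. These 7 held 0 called genes and had a median log2 difference of -0.02. Of 31 tested accessory subunits, which surround and stabilise the core, 9 (29.0%) were higher in PANC-1 and 1 (3.23%) was lower, with a median of 0.30. Over all tested genes these shares were 20.4% and 18.4%. The accessory group was taken by name. It includes NDUFA4, called higher and now placed in complex IV, and the read-through gene NDUFC2-KCTD14, not called. The difference between the groups was not tested. NDUFA1, a small accessory subunit of the membrane arm needed for assembly (gene at chrX:119871487-119876662, GENCODE v29 on GRCh38), stood at 224, 212 and 271 FPKM in PANC-1 libraries, against 65.0, 74.1 and 77.8 FPKM in the 90 line. All PANC-1 libraries were above all 90 libraries, and the log2 difference of 1.69 (SE 0.113, limma adjusted p 0.000508) made it the highest of all members. NDUFB8, of the distal membrane arm, stood at 315, 236 and 327 FPKM in PANC-1 libraries, against 97.7, 132 and 125 in 90 (log2 1.30, SE 0.182, limma adjusted p 0.00470). NDUFS5, which faces the intermembrane space, stood at 397, 349 and 457 FPKM in PANC-1 libraries, against 163, 182 and 187 in 90 (log2 1.17, SE 0.119, limma adjusted p 0.00172). Both sets of libraries were again fully apart. NDUFC1, another small membrane-arm subunit, stood at 36.5, 27.9 and 36.7 FPKM in PANC-1 libraries, against 13.998, 16.4 and 18.0 in 90, and was higher (log2 1.01, SE 0.159, limma adjusted p 0.00693). NDUFA10, NDUFA12, NDUFA4, NDUFB9 and NDUFB4 were the other higher ones, with log2 differences of 0.93, 0.91, 0.85, 0.76 and 0.60. Their calls and that of NDUFC1 were lost without either NC library. Leaving out other single libraries also ended the calls of NDUFB9 (siALDOA 1 of either line), NDUFB4 (siALDOA 2 of PANC-1) and NDUFA12 (siALDOA 2 of either line or siALDOA 1 of the 90 line).

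The member of complex I that was lower in PANC-1 was NDUFA7, an accessory subunit of the peripheral arm, at 32.2, 23.0 and 32.2 FPKM, against 43.4, 63.9 and 56.3 FPKM in 90 (log2 -0.88, SE 0.215, limma adjusted p 0.0286). The call of NDUFA7 was lost without either NC library, without siALDOA 2 of either line, and with median-ratio scaling. The core subunits did not pass the test. NDUFV1, which binds NADH, stood at 149, 118 and 151 FPKM in PANC-1 libraries, against 118, 153 and 154 in 90. NDUFS3 stood at 140.0, 97.1 and 129.7 FPKM in PANC-1 libraries, against 90.7, 132 and 123 in 90, and NDUFS8 at 187, 138 and 189 FPKM, against 145, 212 and 188. The lines overlapped for these genes. NDUFS1 also overlapped, with 27.5, 41.9 and 31.0 FPKM in PANC-1 libraries, against 29.9, 14.3 and 26.2 in 90. NDUFS7 lay below 90 in all PANC-1 libraries, at 29.7, 20.3 and 29.2 FPKM, against 30.4, 46.4 and 45.3, and NDUFV2 above it, at 101, 111 and 114 FPKM, against 85.6, 66.8 and 92.2, and neither passed the test (limma adjusted p 0.102 and 0.0707).

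Complex II, succinate dehydrogenase, differed in its balance of subunits. SDHB, the iron-sulfur subunit (chr1:17018722-17054170, minus strand), stood at 201, 172 and 199 FPKM in PANC-1 libraries, against 68.3, 82.0 and 79.4 FPKM in 90, and was higher in PANC-1 (log2 1.30, SE 0.130, limma adjusted p 0.00162). The mean was 190.4 ± 16.2 FPKM in PANC-1 and 76.6 ± 7.26 in 90 (SD, n = 3 each), a ratio of 2.49. SDHA, the flavoprotein that oxidises succinate and pairs with SDHB, had 84.4, 67.0 and 75.4 FPKM in PANC-1 libraries, against 84.9, 114 and 112 in 90 (log2 -0.44, limma adjusted p 0.105). Within a library, where scaling cancels, SDHB took 71.6% ± 1.09 of the summed FPKM of SDHA and SDHB in PANC-1 and 42.6% ± 1.71 in 90 (SD, n = 3 each), so that SDHB exceeded SDHA in all 3 PANC-1 libraries and lay below it in all 3 of the 90 line. The pair of membrane anchors did not pass the test: SDHC stood at 48.0, 40.8 and 44.4 FPKM in PANC-1 libraries, against 32.0, 36.7 and 40.6 in 90 (limma adjusted p 0.180), and SDHD at 62.0, 97.9 and 73.9 FPKM, against 116, 65.2 and 90.6 (0.650), with overlapping lines for SDHD.

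In complex III the Rieske iron-sulfur protein UQCRFS1 (chr19:29205321-29213541, minus strand) stood at 288, 239.5 and 292 FPKM in PANC-1 libraries, against 99.3, 118 and 118 in 90 (log2 1.28, SE 0.132, limma adjusted p 0.00179). The hinge protein UQCRH, which helps cytochrome c dock, stood at 422, 397 and 466 FPKM in PANC-1 libraries, against 192, 193 and 203 in 90 (log2 1.12, SE 0.10, limma adjusted p 0.00116). The lines were fully apart for both genes. Cytochrome c1, CYC1, also lay higher in every PANC-1 library, at 348, 273 and 355 FPKM, against 167, 238 and 232 in 90, but just missed the threshold (log2 0.62, limma adjusted p 0.0523). The core protein UQCRC1 stood at 197, 162 and 199 FPKM in PANC-1 libraries, against 142, 194 and 179.5 in 90. Its partner UQCRC2 stood at 122, 171 and 116 FPKM in PANC-1 libraries, against 145, 61.4 and 130.1 in 90, and the lines overlapped for both. The small subunit UQCR10 was lower in PANC-1, at 74.0, 53.4 and 71.7 FPKM, against 93.7, 127 and 107 in 90 (log2 -0.71, SE 0.196, limma adjusted p 0.0407). UQCRHL, the copy of UQCRH, was called higher at 2.98, 4.07 and 5.95 FPKM in PANC-1 libraries, against 1.81, 1.95 and 1.57 in 90 (log2 0.90, limma adjusted p 0.0399), with the uncertainty given above. It took 0.991% ± 0.279 of the summed FPKM of the pair in PANC-1 and 0.901% ± 0.120 in 90 (SD, n = 3 each). The calls of UQCR10 and UQCRHL were lost when any 1 of 5 libraries was left out, all but siALDOA 1 of PANC-1.

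In complex IV isoforms of a subunit differed in opposite directions. COX6B1, the common isoform of the subunit that joins the monomers of the enzyme at the intermembrane face (chr19:35648223-35658861), stood at 482, 358 and 510.2 FPKM in PANC-1 libraries, against 148, 211 and 202 FPKM in 90 (log2 1.26, SE 0.197, limma adjusted p 0.00671). Its isoform COX6B2, known for its expression in testis (chr19:55349306-55354814, minus strand), differed in the opposite direction, with 1.51, 0.899 and 0.903 FPKM in PANC-1 libraries, against 10.4, 14.2 and 12.044 in 90 (log2 -2.65, SE 0.219, limma adjusted p 0.000931). COX6B2 took 0.247% ± 0.0684 of the summed FPKM of the isoform pair in PANC-1 and 6.18% ± 0.488 in 90 (SD, n = 3 each). COX7A1, the heart and muscle isoform of subunit VIIa, was listed at 0.120, 0.280 and 0 FPKM in PANC-1 libraries, against 2.49, 3.31 and 3.32 in 90 (log2 -1.83, SE 0.197, limma adjusted p 0.00200). Its PANC-1 values are near the level of 3 fragments and it passed the filter only through the 90 line, so it could pass only as lower in PANC-1. The size of its log2 difference is set by the pseudocount, at -3.94 with 0.1 in place of 1. The common isoform COX7A2 was higher in PANC-1, at 248, 204 and 256 FPKM, against 93.9, 114 and 107 in 90 (log2 1.15, SE 0.143, limma adjusted p 0.00319).

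COX7B and COX7A2L were also higher in PANC-1, with log2 differences of 0.77 (SE 0.144) and 0.69 (SE 0.151). COX7A2L, also called SCAF1, is known for joining complexes III and IV into supercomplexes, and it had 162, 127 and 164 FPKM in PANC-1 libraries, against 82.3, 99.9 and 97.3 in 90. The call of COX6B1 was lost without either NC library, that of COX7A2 after correction for GC content, and those of COX7B and COX7A2L in both cases. The call of COX7B was also lost without siALDOA 2 of PANC-1, and that of COX7A2L without siALDOA 1 of either line. Other abundant subunits did not pass the test. COX4I1 had 440.5, 346 and 469 FPKM in PANC-1 libraries, against 461, 619 and 594 in 90 (limma adjusted p 0.124), and COX8A had 691, 523 and 707 FPKM, against 532, 759 and 733 (0.828). COX6A1 lay higher in all 3 PANC-1 libraries, at 674, 505 and 672 FPKM, against 315, 456 and 442 in 90, with a limma adjusted p of 0.0635.

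In complex V the highest difference was that of ATP5G1. Subunit c forms the ring that carries protons through the membrane, and it is encoded by ATP5G1, ATP5G2 and ATP5G3 (now ATP5MC1 to ATP5MC3) with the same mature protein. ATP5G1 (chr17:48892765-48895871) stood at 428, 361 and 472 FPKM in PANC-1 libraries, against 124, 157 and 159 FPKM in 90 (log2 1.51, SE 0.145, limma adjusted p 0.00142). ATP5G2 was higher too, at 159, 118 and 153 FPKM in PANC-1 libraries, against 56.6, 80.3 and 68.9 in 90 (log2 1.06, SE 0.196, limma adjusted p 0.0119). ATP5G3 did not pass the test, at 85.8, 68.0 and 90.3 FPKM in PANC-1 libraries, against 56.7, 73.8 and 70.7 in 90 (log2 0.27, limma adjusted p 0.260). Of the summed FPKM of the 3 genes, ATP5G1 took 65.2% ± 1.33 in PANC-1 and 52.0% ± 1.37 in 90, and ATP5G3 took 12.6% ± 0.161 in PANC-1 and 23.8% ± 0.117 in 90 (SD, n = 3 each). The share of ATP5G1 was higher in every PANC-1 library than in any library of the 90 line, and that of ATP5G3 lower.

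ATP5L (now ATP5MG), subunit g of the membrane part, stood at 277, 225 and 286 FPKM in PANC-1 libraries, against 95.5, 113 and 113 in 90 (log2 1.28, SE 0.138, limma adjusted p 0.00202). Of the 5 subunits of the F1 head, ATP5A1 (alpha) and ATP5B (beta) were higher, with log2 differences of 0.67 (SE 0.126) and 0.73 (SE 0.156), while ATP5C1 (gamma, the shaft of the rotor) was lower. ATP5C1 had 115, 116 and 134 FPKM in PANC-1 libraries, against 173, 160.1 and 188 in 90 (log2 -0.51, SE 0.0998, limma adjusted p 0.0141). ATP5D (delta) and ATP5E (epsilon) did not pass the test (limma adjusted p 0.725 and 0.0944). The calls of ATP5A1, ATP5B and ATP5C1 were lost without either NC library and with median-ratio scaling, that of ATP5G2 likewise, and that of ATP5L after correction for GC content. The calls of ATP5B and ATP5C1 were also lost without siALDOA 1 of either line, and that of ATP5C1 without siALDOA 2 of PANC-1. The read-through gene ATP5J2-PTCD1 was called higher at log2 0.80 (SE 0.179), and this call was lost whichever of the 6 libraries was left out.

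The second comparison asked how the siALDOA libraries differ from NC. No member was called: limma over both lines called 0 of 83 members and 0.0% of all genes, and 0 members and 43 of all genes had an unadjusted p under 0.05. ALDOA itself was not called in this design, which limits what the 0 can show. The values of the members leaned to one side all the same. The fitted log2 change was below 0 for 74 of 83 members, and for 5944 of all 12592 tested genes. The median was -0.19 over the members (interquartile range -0.23 to -0.13) and 0.01 over all tested genes (-0.09 to 0.14). By complex the median was -0.20 (I), -0.09 (II), -0.15 (III), -0.21 (IV) and -0.18 (V).

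By library the picture was less even. Set against NC of the same line, the median log2 change of the members was -0.08 in siALDOA 1 and -0.37 in siALDOA 2 of PANC-1, and -0.28 in siALDOA 1 and 0.02 in siALDOA 2 of the 90 line. Members below NC numbered 63 and 74 of 83 in PANC-1, and 72 and 37 in the 90 line. Of all 12592 tested genes, 5926 and 5853 were below NC in PANC-1, and 6565 and 6195 in the 90 line. The median of all tested genes lay between -0.02 and 0.03 in these 4 contrasts. The summed FPKM of all genes was 520741 in siALDOA 1 and 475436 in siALDOA 2 of PANC-1, against 529406 in NC, and 483244 in siALDOA 1 and 533767 in siALDOA 2 of the 90 line, against 525366 in NC, so that it was lowest in the pair of libraries where the members were lowest. Rescaled to TPM, which sets these sums equal, the median over both lines was -0.12 for the members and 0.07 for all genes, and after quantile normalization -0.11 and -0.03. Without siALDOA 2 of PANC-1 and siALDOA 1 of the 90 line, a choice made after seeing the data, the median over both lines was -0.04. In total, 26 members were below NC in 4 of 4 siALDOA libraries, against 5.82% of all tested genes, and 0 were above NC in all 4, against 3.39%. Both siALDOA libraries of a line share 1 NC library, so these counts also carry what is peculiar to that library. Of the 26, 16 were in complex I, 0 in complex II, 3 in complex III, 2 in complex IV and 5 in complex V.

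**Figure D3:**
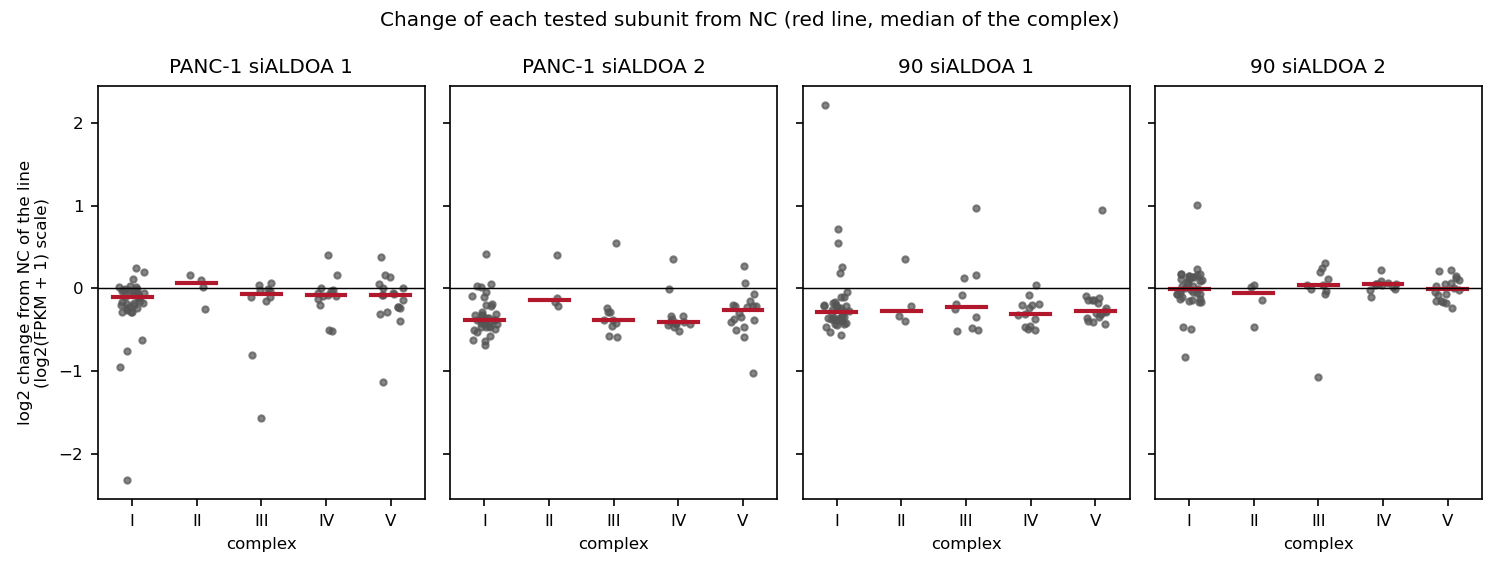
Log2 change from NC of the same line (log2(FPKM + 1) scale) for each tested member in the 4 siALDOA libraries, by complex (points; red lines, medians). Most members lie below 0 in siALDOA 2 of PANC-1 (74 of 83) and siALDOA 1 of the 90 line (72 of 83), and on both sides of it in siALDOA 2 of the 90 line.

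Among members with the smallest p-values of their complex, none was under 0.05. NDUFA1 stood at 224 and 212 FPKM in siALDOA libraries of PANC-1, against 271 in NC, and at 65.0 and 74.1 FPKM in those of the 90 line, against 77.8 in NC (log2 -0.24, SE 0.120, unadjusted limma p 0.102). NDUFA6, an accessory subunit of the peripheral arm, stood at 83.4 and 79.4 FPKM in siALDOA libraries of PANC-1, against 99.3 in NC, and at 74.5 and 75.2 FPKM in those of the 90 line, against 83.3 in NC (log2 -0.22, SE 0.109). Both genes were below NC in 4 of 4 libraries. ATP5C1 was as well, at 115 and 116 FPKM, against 134 in NC of PANC-1, and at 173 and 160.1 FPKM, against 188 in NC of the 90 line (log2 -0.20, SE 0.106). For the other complexes the smallest p-values belonged to UQCRQ (-0.31, SE 0.212) and UQCR11 (-0.28, SE 0.223), COX5A (-0.25, SE 0.151) and COX6C (-0.24, SE 0.150), SDHC (-0.12, SE 0.147) and SDHB (-0.09, SE 0.138), and, after ATP5C1, ATP5O (-0.18, SE 0.104), all as log2 changes over both lines.

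Within a line limma called 0 members as well, with 0 members and 21 of all genes at an unadjusted p under 0.05 in PANC-1 and 0 and 33 in the 90 line. The median log2 change of the members was -0.24 in PANC-1 and -0.14 in the 90 line. The difference of the siALDOA effect between PANC-1 and 90 was called for 0 members (0.0% of all genes; unadjusted p under 0.05 for 0 members and 24 genes).

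The largest changes from NC in the libraries numbered 1 were those of 3 members with a GC content of 35.0% to 43.1%, of which NDUFA5 and UQCRB lie in the lowest 25% and ATP5F1 just above it, in opposite directions in the 2 lines. They were picked after their values were seen. NDUFA5, an accessory subunit of the peripheral arm of complex I with the lowest transcript GC content of the members (35.0%), stood at 3.04 and 19.9 FPKM in siALDOA 1 and 2 of PANC-1, against 19.2 in NC, and at 36.0 and 15.0 FPKM in those of the 90 line, against 6.94 in NC. UQCRB, which binds quinone in complex III, stood at 9.12 and 22.1 FPKM in siALDOA libraries of PANC-1, against 29.1 in NC, and at 25.3 and 15.6 FPKM in those of the 90 line, against 12.4 in NC. ATP5F1 (now ATP5PB), subunit b of the peripheral stalk, stood at 34.5 and 79.9 FPKM in siALDOA libraries of PANC-1, against 76.6 in NC, and at 76.4 and 40.8 FPKM in those of the 90 line, against 38.9 in NC. All 3 were below NC in siALDOA 1 of PANC-1 and above NC in siALDOA 1 of the 90 line. UQCRC2, a core protein of complex III, had another pattern, at 122 and 171 FPKM in siALDOA libraries of PANC-1, against 116 in NC, and at 145 and 61.4 FPKM in those of the 90 line, against 130.1 in NC.

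In siALDOA 1 of both lines the median low-GC member was shifted less than the median low-GC gene. The 20 members in that lowest 25% had a median log2 change from NC of -0.20 and -0.33 in siALDOA 1 and 2 of PANC-1 and of -0.14 and -0.04 in those of the 90 line, while all 2973 tested genes of that GC range had -0.78, 0.51, 1.12 and -0.01 in the same order. The other 63 members had -0.07, -0.38, -0.32 and 0.03. Among transcripts of at most 2000 nt in that GC range, 10 members had -0.19, -0.34, -0.20 and -0.04, and 338 other genes had -0.64, 0.10, 0.65 and -0.03. A correction that removes the GC trend of all genes put the 20 members at 0.60, -0.76, -1.11 and -0.10. Across the 83 members of a library, which share its depth and base composition, Pearson's r of GC content with the change was 0.39 and -0.32 in siALDOA 1 and 2 of PANC-1 and -0.48 and 0.18 in those of the 90 line. The part of base composition in the siALDOA values was not tested.

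**Figure D4:**
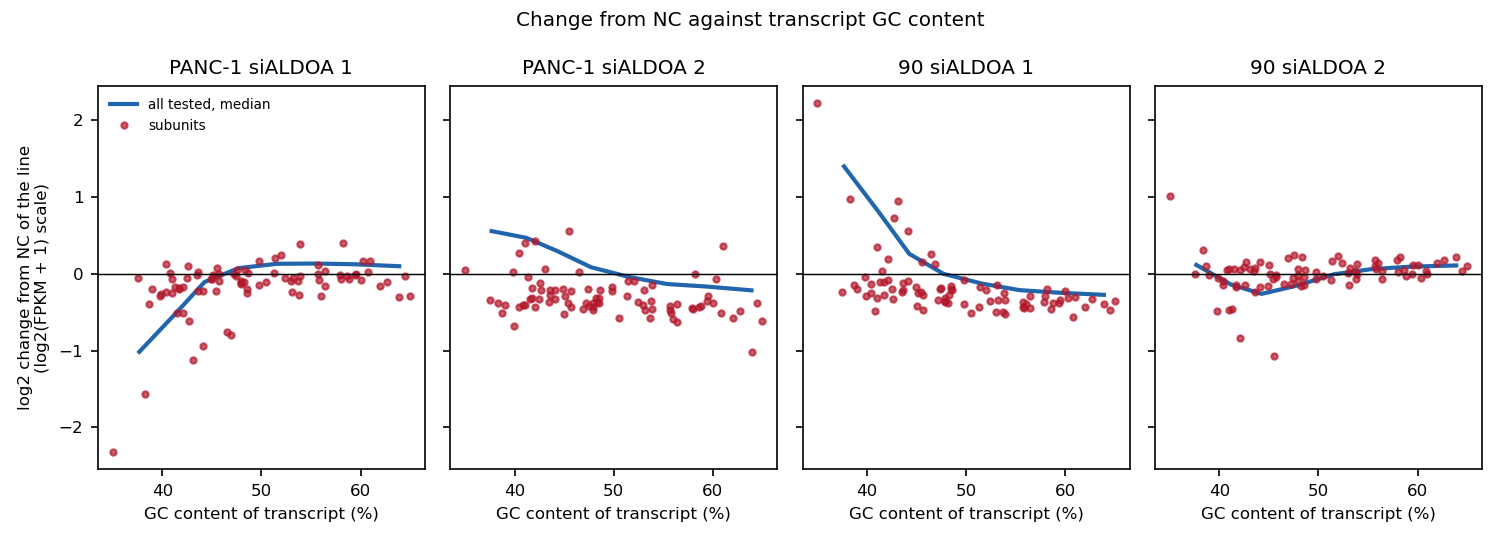
Log2 change from NC of the same line against the GC content of the longest transcript (%), for the 83 tested members (points) and as the median of all tested genes in eighths of GC content (line), in each siALDOA library. In siALDOA 1 of both lines the line bends away from 0 at low GC, while most low-GC members stay near the other members; NDUFA5, at 35.0% GC, is the point at -2.32 in PANC-1 and at 2.22 in the 90 line.

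Other genes of the pathway were read from lists that were chosen with results of these data known. Calls in these lists are those of the main fit and were not followed through the alternatives. The 13 subunits encoded by mitochondrial DNA stood at 632 to 9722 FPKM, and between the lines 1 (7.69%) was higher in PANC-1 and 3 (23.1%) were lower, against 20.4% and 18.4% of all tested genes, with a median log2 difference of 0.02. ND3 was the higher one (log2 0.46, limma adjusted p 0.0272), and ND5 (-1.05), ND6 (-0.97) and COX1 (-0.90) were lower. Strand use was not given in the sources used here, and the part of poly(A) selection and of strand use in these levels was not tested. COX1, the catalytic subunit of complex IV, had 5731, 4421 and 4740.3 FPKM in PANC-1 libraries, against 8261, 9722 and 9716 FPKM in 90, so that it differed in the opposite direction to COX6B1 and COX7A2 of the same enzyme. None of the 13 was called for siALDOA against NC, where their median log2 change was -0.09.

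Of 47 tested assembly factors, which build the complexes but do not stay in them, 12 (25.5%) were higher in PANC-1 and 2 (4.26%) lower, against 20.4% and 18.4% of all tested genes, with a median log2 difference of 0.27, against 0.13 over all. C6orf57 (now SDHAF4), which helps mature the flavoprotein of complex II, was the highest, at 13.7, 13.1 and 14.6 FPKM in PANC-1 libraries, against 3.62, 3.50 and 3.32 in 90 (log2 1.72, SE 0.150, limma adjusted p 0.00110). COX15, needed for the haem of complex IV, followed at log2 1.15, and SCO2 (-0.77), which delivers copper to complex IV, and TACO1 (-0.75), the translational activator of COX1, were the lower ones. Of 15 tested regulators of mitochondrial biogenesis 2 (13.3%, against 20.4% of all genes) were higher, C10orf2 (now TWNK, the helicase of mitochondrial DNA; log2 1.40) and PPRC1 (a coactivator; 0.90), and 0 lower. NRF1 stood at 7.81, 6.21 and 6.16 FPKM in PANC-1 libraries, against 6.28, 7.98 and 6.77 in 90, and GABPA at 2.35, 5.69 and 4.01 FPKM, against 6.30, 2.18 and 2.51, and neither passed the test. PPARGC1A, the PGC-1alpha coactivator, did not pass 0.0553 FPKM in any library. For siALDOA against NC 0 of these genes were called, with a median log2 change of -0.10 over the assembly factors and 0.02 over the regulators.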

How the data were processed

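The authors deposited FPKM values for 41768 named genes in 6 libraries (1 further row had no name). The submitters' processing notes name HISAT2, featureCounts and hg38, while versions, strand use and gene lengths were not given in the sources used here. Members, other gene lists and the cell type markers were chosen with earlier results of these data known. Depth was recovered from the low values of short RNAs, of which 97.2% to 97.7% fell on whole multiples (up to 8) of a step within a tolerance of 0.03. Arithmetic used Python 3.11.15 and R 4.3.3.

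Values were analysed as log2(FPKM + 1), a scale on which the change of low genes is understated. The 12592 genes averaging 1 FPKM or more were fitted with limma 3.58.1, with an intensity trend in the prior variance, Benjamini-Hochberg adjustment over all of them and a threshold of 0.05. PANC-1 against 90 and siALDOA against NC over both lines came from a fit with terms for line and siALDOA (3 residual degrees of freedom). Effects within a line and their difference were taken from a model of the 4 group means (2 residual degrees of freedom), in which a lone NC library is taken to be as variable as siALDOA libraries. The fits were run on simulated data only to check that they recover changes that were put in. The simulated noise was a fraction of the residual spread seen here, so this does not show how they perform on these libraries. Set tests were not run, and a list is described by its counts and median.

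The named genes are, for each complex and main comparison, the called members of largest change (at most 4 per direction), or the 2 of smallest p where no member was called, together with the core subunits of complex I, the members of complex II, CYC1, UQCRFS1, UQCRC1, UQCRC2 and the genes with isoforms. Other members called between the lines, and members named for their change in the libraries numbered 1, were added after their values were seen. A gene under this rule is not reported here. GC content, length and coordinates are those of GENCODE v29 (GRCh38), with the longest transcript of a symbol, found for 94.4% of tested genes and all 89 members. Promoters and motif matches used RefSeq windows of GRCh38.p14. Alternatives were a pseudocount of 0.1, no filter, rescaling to TPM, median-ratio scaling, quantile normalization, GC correction (lowess span 0.3), the library number as a replicate block, and leaving out each library.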

Additional observations from a re-analysis of the deposited data

How the results depend on the processing

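For siALDOA against NC over both lines, 0 members and 0 genes were called under every alternative, and the median of the members stayed below 0, between -0.25 and -0.11 in all of them but 1. In that one, without siALDOA 2 of PANC-1 and siALDOA 1 of the 90 line and added after seeing the data, it was -0.04, and of the 10 members with the smallest p-values SDHB changed sign, to 0.0303. For PANC-1 against 90 the 28 called members became 12 with median-ratio scaling, and the 4882 called genes became 3700. Without 1 library at a time, between 11 and 24 members and between 2359 and 4084 genes were called. Pseudocount, filter, TPM, quantile normalization and GC correction gave 26 to 39 members and 4286 to 6449 genes, and after GC correction 18 of the 28 remained. With the library number as a replicate block 17 members (15 higher) and 3258 genes were called. The numbers do not pair the libraries: deviations of same-numbered libraries from the mean of their line correlated at -0.39 (NC), -0.87 (number 1) and -0.73 (number 2). A crossed block, added after seeing the data, called 54 members (41 higher) and 7594 genes. Within a line, 0 members were called under every alternative that could be fitted, and no siALDOA effect can be had without the only NC library of that line. The cause of these changes was not tested, except that leaving out a library leaves fewer samples. The design had 1 NC library a line and 2 or 3 residual degrees of freedom, and in it changes as large as that of ALDOA were not called. Depth limits COX7A1 in PANC-1, and the filter on low values left 6 members untested.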

Other observations

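Subunits and partners that the naming rule leaves out were read as well, in the main fit only, and their calls were not followed through the alternatives. NDUFAB1, the mitochondrial acyl carrier protein and a subunit of complex I, was higher in PANC-1, at 298, 234 and 283 FPKM, against 146, 154 and 170.0 in 90 (log2 0.79, SE 0.132, limma adjusted p 0.00850). USMG5 (now ATP5MK), a small subunit of ATP synthase known for its dimers, was higher too, at 158, 164 and 210.0 FPKM, against 67.5, 74.1 and 65.5 (log2 1.34, limma adjusted p 0.00211). Lower in PANC-1 were C14orf2, another small subunit of ATP synthase, at 57.6, 48.2 and 65.5 FPKM, against 86.5, 78.6 and 90.2 (log2 -0.58, limma adjusted p 0.0219), and ATPIF1, the inhibitor protein that stops ATP synthase from running in reverse, at 39.6, 39.4 and 43.9 FPKM, against 73.9, 69.8 and 80.1 (log2 -0.85, limma adjusted p 0.00299). Of the 5 F1 head subunits, ATP5A1 and ATP5B were called higher in PANC-1 and ATP5C1 was called lower, like ATPIF1. ATP5D and ATP5E did not pass the test. The calls of these 3 F1 subunits were lost without either NC library and with median-ratio scaling.

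CYCS, the cytochrome c that links complexes III and IV, stood at 25.2 and 78.6 FPKM in siALDOA 1 and 2 of PANC-1, against 67.9 in NC, and at 29.3 and 11.6 FPKM in those of the 90 line, against 9.70 in NC. TFAM, which packages and transcribes mitochondrial DNA, had 2.13 and 14.4 FPKM in PANC-1, against 10.2 in NC, and 13.6 and 3.13 FPKM in the 90 line, against 2.52 in NC. Like NDUFA5 and UQCRB, both genes were lower than NC in siALDOA 1 of PANC-1 and higher than NC in siALDOA 1 of the 90 line, and neither passed the test between siALDOA and NC. They were picked after their values were seen.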
